A study of Mus musculus with 5 samples.

Results

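*Paupar* is a long non-coding RNA transcribed from the neighbourhood of *Pax6*, and the peaks described here are its CHART-Seq peaks that lie inside protein-coding genes but away from gene starts. A peak was counted when its midpoint lay between the start and the end of at least 1 protein-coding gene, and more than 5000 bp but at most 100000 bp from the nearest start of any protein-coding gene. Of the 2849 peaks of the deposited list, 863 met this rule (30.3%, 95% Wilson interval 28.6 to 32%). The others comprised 891 intergenic peaks at the same distances, 460 peaks within 5 kb of a gene start and 635 peaks over 100 kb out. CHART-Seq was performed in N2A cells, a mouse neuroblastoma line, with 2 *Paupar* pull-downs, 2 pull-downs with a *LacZ* control oligonucleotide and 1 input DNA library. All 5 libraries came from N2A cells, for which the labels name no treatment or genetic change. The list is joint for both *Paupar* pull-downs and gives a position (mm9) and a score for each peak. It separates neither the libraries nor their reads, so replicate error could not be measured, the depth behind a peak is unknown, and intervals cover counting error only. How the calls of the 2 pull-downs were joined is not given in the sources used here.

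In CHART, biotinylated DNA oligonucleotides that pair with an RNA pull it out of crosslinked chromatin together with the DNA it touches, directly or through proteins. The elution with RNase H, which cuts RNA paired with DNA, is meant to release what was held through the RNA. Sequence inside genes is mostly intronic, and introns can hold enhancers, start sites of shorter transcripts, nested genes and tandem repeats, in which a short unit of DNA is copied head to tail.

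*Paupar* was captured with 4 oligonucleotides of 24 nt, and their sequences are shown because stretches of them recur in the peaks. Capitals mark the 10-nt stretch of each that was found, on either strand, in the largest number of distal gene-body peaks.
PauparCHART254: ggcttaagTCCACCCCTGgattcg
PauparCHART428: GCCTGGAACTagatcaaggcagag
PauparCHART2041: cTCTCAGAAACtgcgatacaaaag
PauparCHART2067: gaggcctagtcAAAATATCTCcac

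An exact match of at least 10 nt to any of these 4 oligonucleotides was present in 205 of the 863 peaks (23.8%, 95% Wilson interval 21 to 26.7%). In the 2 regions of the same width directly beside each peak it was present in 186 of 1726 (10.8%, 9.4 to 12.3%), an odds ratio of 2.58 (Fisher's exact test, two-sided, p = 3.3e-17). Like the tests below, this one treats peaks and regions of a single list as its units and carries no information on the spread between libraries. Here, and in the comparisons with windows outside the peaks below, a peak and its own 2 regions were taken as independent and not matched. PauparCHART254 matched 77 peaks, or 8.92% against 2.26% of the adjacent regions (odds ratio 4.24, Fisher's exact p = 1.7e-13). PauparCHART2041 matched 61 peaks, or 7.07% against 2.38% (odds ratio 3.13, Fisher's exact p = 3.8e-08). For PauparCHART2067 the shares were 4.29% and 2.49% (odds ratio 1.75, Fisher's exact p = 0.016), and for PauparCHART428 they were 6.14% and 4.4% (odds ratio 1.42, p = 0.068). The control oligonucleotide, corresponding to *LacZ*, matched 1 peak (0.116%) and 7 adjacent regions (0.406%, Fisher's exact p = 0.28). Its matches were rarer than those of the 4 *Paupar* oligonucleotides also in adjacent regions (0.406% against 2.26% to 4.4%), so this comparison rests on few matches. The part of base composition in any of these comparisons was not tested. The excess over adjacent regions was also present in each of the other classes of peaks, where the odds ratios were 2.65 for intergenic peaks at the same distances, 3.13 for peaks within 5 kb of a gene start and 3.44 for peaks over 100 kb out (Fisher's exact p = 1.1e-18, 1.6e-14 and 8.7e-20).

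**Figure D1:**
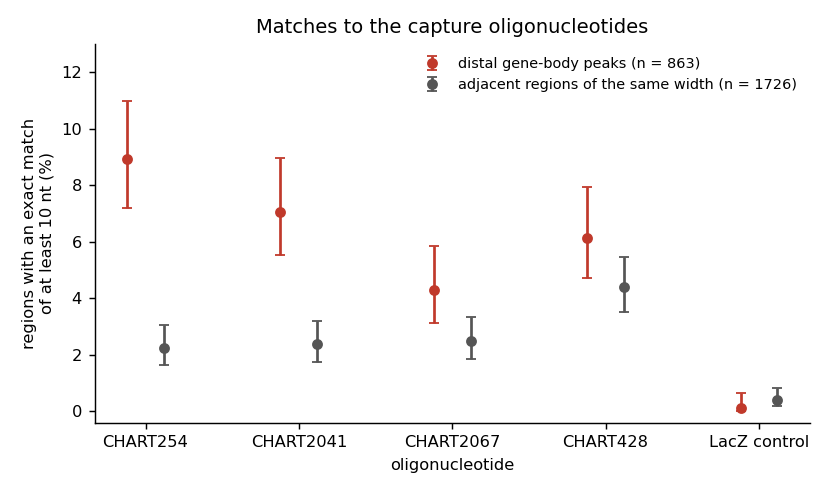
Share of distal gene-body peaks (red, n = 863) and of adjacent regions of the same width (grey, n = 1726) with an exact match of at least 10 nt to each *Paupar* capture oligonucleotide or to the *LacZ* control oligonucleotide, in percent with 95% Wilson intervals. The intervals for peaks and adjacent regions lie apart for CHART254 (8.92% and 2.26%) and CHART2041 (7.07% and 2.38%) and overlap for CHART2067, CHART428 and *LacZ*.

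Some 10-nt stretches of the oligonucleotides were found in more peaks than others, a difference that was not tested. Positions 9 to 18 of PauparCHART254, counted from its 5′ end, were found in 22 peaks (2.55%) and in 9 adjacent regions (0.521%). Positions 2 to 11 of PauparCHART2041 were found in 22 peaks (2.55%) and 13 adjacent regions (0.753%). The most frequent stretch of PauparCHART428, positions 1 to 10, was found in 18 peaks (2.09%), against 31 adjacent regions (1.8%). Positions 12 to 21 of PauparCHART2067 were found in 9 peaks (1.04%) and 7 adjacent regions (0.406%).

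**Figure D2:**
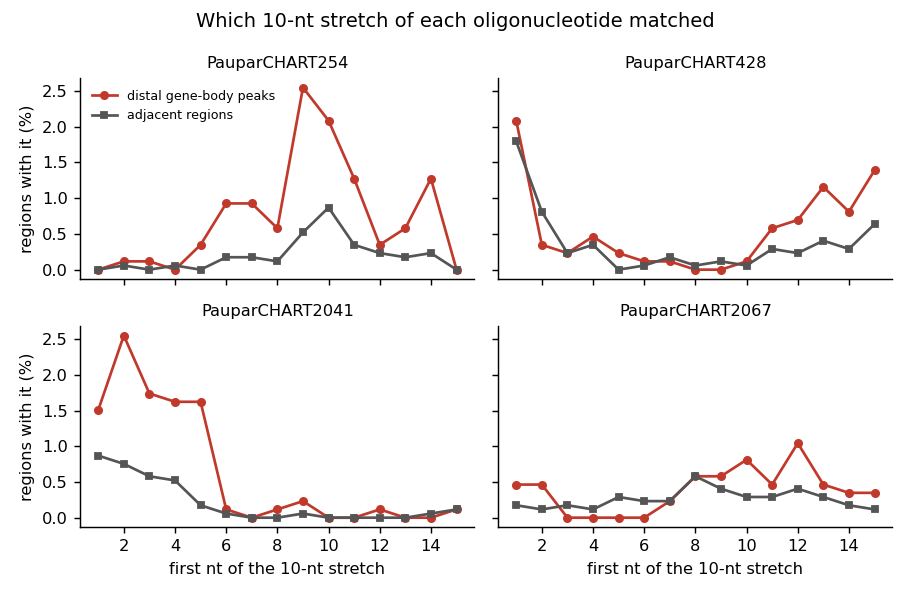
Share of distal gene-body peaks (red circles) and of adjacent regions (grey squares) that hold each 10-nt stretch of the 4 capture oligonucleotides, in percent, against the position of the first nt of the stretch. The peaks stand highest above the adjacent regions near position 9 of PauparCHART254 (2.55% and 0.521%) and position 2 of PauparCHART2041 (2.55% and 0.753%).

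The longest match in a peak was between 4 and 13 nt long. It reached 10 nt in 146 peaks, 11 nt in 50, 12 nt in 7 and 13 nt in 2. The matches lay a median of 126 bp from the midpoint of the peak, and 81 of the 205 (39.5%) lay within 100 bp of it. The 9 whose match reached 12 or 13 nt were all intronic, and 7 of them are shown with 24 bases on either side on the plus strand of mm9, with the match in capitals.
4930590J08Rik, chr6:91898545-91898605, PauparCHART2041: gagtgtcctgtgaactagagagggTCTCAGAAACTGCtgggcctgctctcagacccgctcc
Clec4a1, chr6:122877094-122877154, PauparCHART428: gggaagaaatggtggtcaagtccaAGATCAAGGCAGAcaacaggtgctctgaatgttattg
Tsga14, chr6:30615751-30615810, PauparCHART2041: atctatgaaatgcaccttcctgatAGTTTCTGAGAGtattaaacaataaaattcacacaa
Acap2, chr16:31188768-31188827, PauparCHART428: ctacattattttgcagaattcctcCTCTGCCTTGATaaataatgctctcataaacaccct
Gorasp2, chr2:70512455-70512514, PauparCHART2067: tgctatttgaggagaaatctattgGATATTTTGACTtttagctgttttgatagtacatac
Ttc7, chr17:87714037-87714096, PauparCHART254: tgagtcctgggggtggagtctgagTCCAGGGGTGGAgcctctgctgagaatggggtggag
St8sia1, chr6:142901090-142901149, PauparCHART428: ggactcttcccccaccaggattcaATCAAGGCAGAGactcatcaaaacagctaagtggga

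The peaks with a match of 13 nt were in intron 14 of *4930590J08Rik* and intron 2 of *Clec4a1*, a C-type lectin gene, with scores of 14.04 and 9.91. Among the 7 with 12 nt, the scores ranged from 33.93 in *Tsga14* to 8.89 in *St8sia1*, a sialyltransferase gene of ganglioside synthesis, and 7.35 in *Slc12a2*, a chloride cotransporter gene named after its value was seen. The peak in intron 29 of *Fam38b*, a mechanically gated channel gene, had a match of 12 nt and a score of 24.77. The oligonucleotide read along the sense strand of the host gene in 93 of 202 peaks (46%, counting peaks whose host genes lie on 1 strand) and in 98 of 186 adjacent regions (52.7%). This difference was not past the threshold of 0.05 (odds ratio 0.766, Fisher's exact p = 0.22).

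The central 200 bp of the peaks were compared with windows of the same size 1 kb outside either border. Every 6-mer was counted once per window with both strands merged. Of the 2080 6-mers tested, 35 (1.68%) were more frequent in the centres and 111 (5.34%) were less frequent, with p-values of Fisher's exact test adjusted over all 6-mers by Benjamini-Hochberg and a threshold of 0.05. Of the more frequent ones, 10 led by p-value. CACCCC was found in 25.5% of the centres and 13.5% of the outer windows (odds ratio 2.19, adjusted exact p = 9.0e-11), and ACCCCT in 20.3% and 9.56% (odds ratio 2.41, adjusted exact p = 9.0e-11). They were followed by CTGCTC (25.4% and 14.7%, odds ratio 1.98) and ATCATC (14.7% and 6.66%, odds ratio 2.42). The others of the 10 were CAGGGG (22.5% and 13%), CCCTGC (21.9% and 13.2%), CCACCC (23.1% and 14.4%), GACTCA (14.5% and 8.4%), GGGTGA (15.2% and 8.98%) and ATGATG (15.9% and 9.68%), with odds ratios between 1.76 and 1.94. Several of these words overlap one another, and CAGGGG is the reverse complement of a word offset from ACCCCT by 1 base, so they are not separate observations. The 4 capture oligonucleotides hold 75 of the 2080 6-mers (3.61%), and 13 of the 35 more frequent 6-mers were among those. These 13 included 4 of the 10 above, all in PauparCHART254, the first being CACCCC. They also included CTGAGA of PauparCHART2041 (odds ratio 1.5, adjusted exact p = 0.0025) and, in the same oligonucleotide, AACTGC (odds ratio 1.64, adjusted exact p = 0.003). CTGCTC does not occur in the oligonucleotides, and neither does ATCATC. The less frequent 6-mers were led by words of A and T, such as AAAAAA, which was present in 9.85% of the centres and 21.4% of the outer windows (odds ratio 0.402, adjusted exact p = 9.0e-11). The mean GC content was 48.6% in the centres and 45.5% in the outer windows, and its part in these differences was not tested.

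Of 19 short transcription factor motifs searched on both strands, 1 (5.26%) was more frequent in the centres and 0 (0%) were less frequent after adjustment over the motifs by Benjamini-Hochberg. At an unadjusted p under 0.05 these counts were also 1 and 0. The one past the threshold was CACCCC, the CACCC box that Krüppel-like factors bind and at the same time one of the 6-mers above (adjusted exact p = 2.5e-12 over the motifs). It was present in 25.9% of the centres of all other peaks. Next came the AP-1 site TGANTCA (7.88% and 5.91%), the E-box CAGATG of neurogenic factors (17% and 14.2%) and the homeodomain core TAATTA (4.29% and 5.97%), each with an adjusted p-value of 0.38. The remaining motifs had adjusted p-values from 0.46 to 1. They were the SOX site AACAAAG (3.94% and 5.39%), the GATA site AGATAA (9.73% and 10%), the nuclear receptor site AGGTCA (12.5% and 12.8%), the forkhead site TGTTTAC (2.2% and 2.67%), the GC box GGGCGG (3.71% and 3.82%), the E-box CAGCTG of proneural factors (11% and 9.97%) and the E-box CACGTG of MYC (1.97% and 2.9%). Longer ones were the POU octamer ATGCAAAT (0.463% and 0.753%), the AP-2 site GCCNNNGGC (4.06% and 4.35%), the MEF2 site (2.9% and 3.19%), the CTCF core (1.85% and 1.74%) and part of the REST site, TTCAGCACC (0.348% and 0.174%). The cyclic AMP response element TGACGTCA was present in 1 centre and 1 outer window, CGCGCG in 1 and 5, and the NFI site in 0 of either. A site of the PAX6 paired domain, searched with at most 2 mismatches and added to the 19 motifs afterwards, was present in 92 centres (10.7%, 95% Wilson interval 8.77 to 12.9%) and 148 outer windows (8.57%, 7.34 to 9.99%), with an odds ratio of 1.27 (Fisher's exact p = 0.085). A motif match is a description of the letters in a window and not evidence that a factor was bound there.

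The centres of some of the highest-scoring peaks were tandem repeats. A repeat was called where, at a shift of 1 to 60 bp, at least 85% of bases equalled those 1 shift further along over a stretch of 60 bp, a definition chosen after the sequences had been seen. It was met by 75 of the 863 central windows (8.69%, 95% Wilson interval 6.99 to 10.8%) and by 70 of the 1726 outer windows (4.06%, 3.22 to 5.09%), an odds ratio of 2.25 (Fisher's exact p = 2.9e-06). The share was higher than the 3.48% among peaks within 5 kb of a gene start (odds ratio 2.64, adjusted exact p = 7.1e-04 over 3 classes). It was not distinguishable from the 10.1% among intergenic peaks at the same distances (odds ratio 0.847, adjusted exact p = 0.33) or the 11.2% among peaks over 100 kb out (odds ratio 0.756, adjusted p = 0.17). A shift of 3 bp gave the best repeat in 11 centres and in 1 outer window, whereas a shift of 1 or 2 bp did so in 1 centre and in 12 outer windows. Shifts of 4 to 9 bp did so in 14 centres and 23 outer windows, shifts of 10 to 29 bp in 27 and 14, and shifts of 30 to 60 bp in 22 and 20. These counts by shift were not tested.

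The centres of 6 peaks are shown on the plus strand of mm9, each over 200 bp, with occurrences of the 10 6-mers listed above in capitals on either strand. They show the kinds of sequence at the centres. *Sos2*, *Mid1* and *Vsnl1* are hosts of high-scoring peaks, *Scn9a* is a host in both knockdown lists described below, and *Gpr133* and *Cryzl1* were chosen after their sequences were seen, for the number of repeat units that carry the same 6-mers as PauparCHART254.
Sos2, chr12:70712668-70712867: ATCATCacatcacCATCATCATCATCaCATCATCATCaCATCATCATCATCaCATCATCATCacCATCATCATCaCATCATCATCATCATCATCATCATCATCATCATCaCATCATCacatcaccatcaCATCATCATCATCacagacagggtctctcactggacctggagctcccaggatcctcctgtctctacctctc
Mid1, chrX:166442000-166442199: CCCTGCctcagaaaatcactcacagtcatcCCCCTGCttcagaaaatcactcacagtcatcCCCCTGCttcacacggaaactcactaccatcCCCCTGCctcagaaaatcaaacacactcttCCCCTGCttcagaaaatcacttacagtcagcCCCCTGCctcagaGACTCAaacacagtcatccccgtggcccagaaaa
Vsnl1, chr12:11356590-11356789: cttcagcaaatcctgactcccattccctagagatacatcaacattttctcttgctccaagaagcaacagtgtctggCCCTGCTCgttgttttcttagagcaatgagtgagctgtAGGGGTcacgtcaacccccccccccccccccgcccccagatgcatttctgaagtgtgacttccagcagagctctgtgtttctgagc
Scn9a, chr2:66419927-66420126: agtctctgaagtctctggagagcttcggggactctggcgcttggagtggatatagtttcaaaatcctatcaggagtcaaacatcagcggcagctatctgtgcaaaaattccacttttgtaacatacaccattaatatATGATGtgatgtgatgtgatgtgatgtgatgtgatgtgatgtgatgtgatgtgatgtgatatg
Gpr133, chr5:129631544-129631743: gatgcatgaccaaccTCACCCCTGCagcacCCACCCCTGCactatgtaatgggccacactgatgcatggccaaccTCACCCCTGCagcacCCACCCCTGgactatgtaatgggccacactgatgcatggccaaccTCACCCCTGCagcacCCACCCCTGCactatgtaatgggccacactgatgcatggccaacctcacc
Cryzl1, chr16:91696786-91696985: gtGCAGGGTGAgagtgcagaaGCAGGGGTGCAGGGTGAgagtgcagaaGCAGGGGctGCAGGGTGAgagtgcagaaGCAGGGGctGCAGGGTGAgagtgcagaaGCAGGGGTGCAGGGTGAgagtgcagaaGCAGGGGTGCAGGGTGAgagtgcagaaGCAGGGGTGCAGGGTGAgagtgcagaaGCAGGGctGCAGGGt

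The window of *Sos2* holds 53 occurrences of the 10 6-mers, from a repeat with a unit of 3 bp. That of *Mid1* holds a unit of 31 bp and that of *Cryzl1* a unit of 27 bp, while *Gpr133* has a unit of 60 bp in which the letters of positions 9 to 18 of PauparCHART254 recur in part. The window of *Vsnl1* met no repeat criterion. The 75 peaks with a repeat at the centre had a median score of 16.43 and a median width of 681 bp, against 12.17 and 562 bp for the other 788. Capture oligonucleotide matches were present in 17.3% of the former and 24.4% of the latter. With the repeat windows left out of centres and outer windows alike, 41 6-mers were more frequent in the centres, which included 34 of the 35 above and all 10 of those named. Without the repeat windows CACCCC was present in 26% of centres and 14% of outer windows (odds ratio 2.16, adjusted exact p = 1.8e-09). The shares for ATCATC were 13.5% and 6.82% (odds ratio 2.12, adjusted exact p = 2.0e-05). With the repeat windows kept and outer windows 5 kb away in place of 1 kb, 24 of the 35 6-mers and 9 of the 10 named were again more frequent, and with outer windows at 1 kb and peaks scoring at least 10 these counts were 15 and 10.

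The width of the 863 peaks ranged from 165 to 5425 bp, the median was 564 bp, and the quartiles were 374 and 878 bp. There were 167 peaks (19.4%) over 1 kb. The authors' score ranged from 5.59 to 133.32 around a median of 12.48, and it was at least 10 in 606 peaks (70.2%). Across the peaks, score and width had a Spearman correlation of 0.388, and score and distance to the nearest gene start one of -0.00238 (n = 863 peaks of 1 list, given as a description). Between 5 and 100 kb from a gene start, gene bodies held 1.4 peaks per Mb (exact 95% Poisson interval 1.31 to 1.5, over 614 Mb) and intergenic sequence 1.31 (1.23 to 1.4, over 678 Mb). Within 5 kb of a gene start the density was 2.29 per Mb, and beyond 100 kb it was 0.596. Bases were counted over all known sequence, chromosome Y included, without a filter for sequence to which reads map uniquely. The paper corrected its own enrichments for mappability. The same limit holds for all counts of bases below.

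The highest-scoring peak lay in intron 12 of *Sos2*, which encodes an exchange factor that activates Ras, on chromosome 12 from 70710145 to 70715391. Its score of 133.32 ranked 4 among all 2849 peaks, and it was 5247 bp wide. The next, with a score of 106.71, lay in the last intron of the zinc finger gene *Zfp68*. *Mid1*, a ubiquitin ligase gene of the X chromosome that spans the pseudoautosomal boundary in laboratory mice, held 3 of the 10 highest-scoring peaks, with scores of 96.47, 93.75 and 71.63. All 3 lay in the last part of the gene, between 96.2% and 99.5% of its length, and all 3 centres were repeats of 31 bp. *Vsnl1*, a neuronal calcium sensor gene, held a peak of 3439 bp with a score of 83.31 in intron 2. The remaining ones were in *Tex2* (75.07), in *Gtf2ird1* (72.32), which encodes a transcription factor of the TFII-I family, in *Cdk18* (68.94), a cyclin-dependent kinase gene, and in *C330046G03Rik* (64.74). All 10 were intronic in the sense that their midpoints lay outside exons of protein-coding transcripts. The 3 midpoints in *Mid1* lay in no intron of its longest protein-coding transcript. The 3 widest peaks lay in *Zfp68* (5425 bp), *Mid1* (5396 bp) and *Sos2* (5247 bp).

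**Figure D3:**
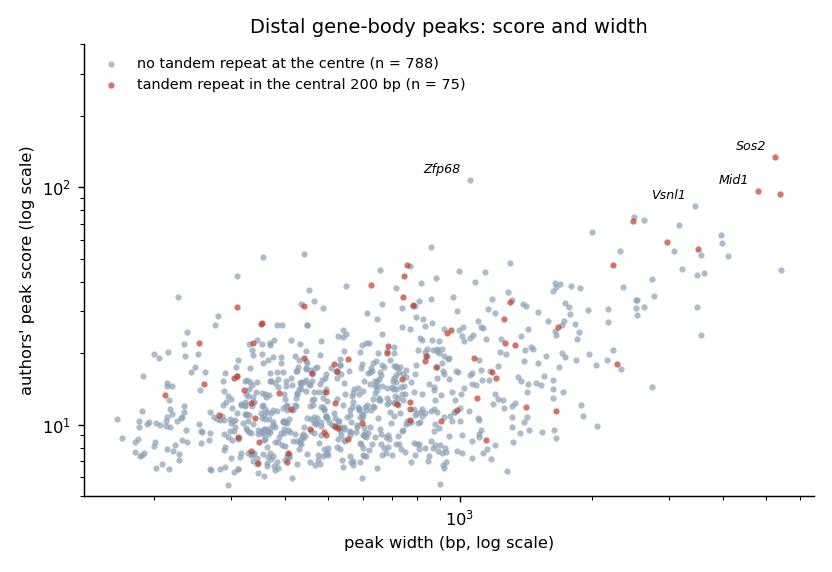
Width in bp (horizontal, log scale) and authors' score (vertical, log scale) of the 863 distal gene-body peaks, with the 75 that have a tandem repeat in their central 200 bp in red and the other 788 in grey-blue. *Sos2* (133.32) has the highest score, *Zfp68* (106.71) is narrower at 1054 bp, and the labelled *Mid1* peak (96.47) is 1 of 3 red points of that gene.

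Compared with the other classes, distal gene-body peaks differed in GC content and not detectably from intergenic peaks at the same distances. Each class was scored by its share of peaks above the median of the whole list (width 556 bp, score 12.69, GC content 48.1%), and p-values were adjusted over 12 tests (Fisher's exact test, Benjamini-Hochberg). The GC content was above the median in 52.7% of distal gene-body peaks, in 68% of peaks within 5 kb of a gene start (odds ratio 0.524, adjusted exact p = 4.2e-07) and in 33.7% of peaks over 100 kb out (odds ratio 2.19, adjusted p = 2.7e-12). The width was above the median in 50.9%, against 43.1% of peaks over 100 kb out (odds ratio 1.36, adjusted exact p = 0.013). Against intergenic peaks at the same distances, the odds ratios were 1.01 for width, 0.913 for score, 1.16 for GC content and 0.986 for a capture oligonucleotide match, with adjusted p-values from 0.22 to 0.96.

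Nearly all of the peaks were intronic, as was nearly all of the sequence in which they could lie. A midpoint or base in a gene body was counted as intronic when it lay outside all exons of protein-coding transcripts. Introns held 814 midpoints (94.3%, 95% Wilson interval 92.6 to 95.7%), while 93.1% of the eligible bases, those in gene bodies at the same distances, were intronic. Coding sequence held 21 (2.43%, 1.6 to 3.69%, against 3.68% of eligible bases), and 3′ UTRs held 21 (2.43%, against 3.09%). The 5′ UTRs held 7 (0.811%, 0.393 to 1.66%), against 0.149% of eligible bases. The first intron of the longest transcript held 242 (28%, 25.1 to 31.1%), against 25.8% of eligible bases. Along the host gene from start to end, 4 parts of equal length held 209, 255, 209 and 190 peaks. The nearest gene start was that of a gene holding the peak for 607 peaks (70.3%) and that of another gene for the rest. There were 16 peaks (1.85%) that also lay in an annotated non-coding gene.

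Genes can have start sites of shorter transcripts inside them, which the distance rule did not use. Of the 863 peaks, 30 lay within 1 kb of the start of another protein-coding transcript (3.48%, 95% Wilson interval 2.45 to 4.92%), whereas 1.69% of eligible bases did so. Among the 7 peaks in 5′ UTRs, 5 were of this kind, such as those in *Palld*, an actin-binding protein gene (17 bp from the internal start, score 19.06), and *Galk2*, a kinase gene (31 bp, 16.69), 2 names chosen after their values were seen. By score, the 30 peaks near an internal start were led by *C330046G03Rik* (64.74, 649 bp from the internal start), *Ash2l*, a subunit of histone H3 methyltransferase complexes (39.88, 720 bp), *Dnmt3a*, a de novo DNA methyltransferase (38.44, 863 bp), *Dctd*, a deoxycytidylate deaminase (23.61, 482 bp), and *Arhgef10l*, an exchange factor for small GTPases (22.44, 947 bp). Their median GC content was 50.4%, against 48.4% for the farther 833, and 1 of the 30 centres held 10 or more CpG dinucleotides, compared with 6 of the 833 and 46 of the 460 peaks within 5 kb of a gene start.

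The 863 peaks lay in 746 host genes, taking the shortest gene where several overlapped, out of 16125 protein-coding genes with eligible bases (4.63%). Hosts had a median length of 86542 bp, compared with 26565 bp for all 16125. The share of genes that were hosts rose from 0.372% to 1.61%, 4.71% and 11.8% over 4 groups of genes ordered by eligible length. There were 653 hosts with 1 peak, 75 with 2, 14 with 3 and 4 with more. *Zfp68* had 4 peaks within a gene of 15146 bp, with scores of 106.71, 44.95, 28.26 and 11.48. *Arid4a*, a chromatin regulator that binds the retinoblastoma protein, had 4 in its last 2 introns (26.13, 22.04, 18.69 and 14.8). *Itpr2*, a calcium release channel opened by inositol trisphosphate, had 4, in introns 2 and 36 (15.66, 15.62, 8.27 and 6.74). The annotated gene *Gm20388* had 6, but its model on chromosome 8 is 4434882 bp long and spans 72 whole protein-coding genes, and these 6 peaks count as gene-body peaks only through it. Without them 857 peaks remained. In all, 99 peaks (11.5%) lay within 10 kb of another peak of the class.

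Regulators of small GTPases, which switch Ras, Rap and related proteins on and off, were the family with the largest share of hosts among 10 families of host genes. Of its 119 genes with eligible bases, 23 were hosts (19.3%), against 4.63% of all genes, with 29 peaks at 2.61 per Mb (exact 95% Poisson interval 1.75 to 3.75), against 1.4 per Mb over all genes. Its genes are long, with a median eligible length of 92.1 kb against 20.7 kb, and the share of hosts was 11.8% among the genes with the most eligible sequence (median 95 kb). The median was 40.9 kb for sodium, calcium and potassium channels, 84.1 kb for cyclic nucleotide, calcium and lipid signalling genes, 43.3 kb for chromatin regulators and 22.4 kb for homeodomain and related factors, the families described next, and a share of hosts was not adjusted for length. The highest scores belonged to *Sos2* (133.32), *Rapgef5*, an exchange factor for Rap (44.06), and *Rasa3*, a GTPase-activating protein for Ras (36.54). Among genes of sodium, calcium and potassium channels, a list made by gene symbol that holds voltage-gated channels, their auxiliary proteins and other potassium channels such as inward rectifiers, 18 of 125 were hosts (14.4%), with 21 peaks at 2.66 per Mb (1.65 to 4.07), led by the potassium channel *Kcnq1* (17.43), the L-type calcium channel *Cacna1c* (16.65) and the sodium channel *Scn9a* (13.99). In this family the calcium channel gene *Cacna1i* had 3 peaks and the inward rectifier gene *Kcnj12* had 2, names chosen after their values were seen. Among cyclic nucleotide, calcium and lipid signalling genes 17 of 118 were hosts (14.4%), with 22 peaks at 2.13 per Mb (1.34 to 3.23), led by *Prkaa1*, the catalytic subunit of AMP-activated kinase (57.85), *Camk1d*, a calmodulin-dependent kinase (44.68), and *Pde9a*, a cyclic GMP phosphodiesterase (22.68). These genes encode mostly enzymes, but 4 of the 22 peaks were those of the channel gene *Itpr2*.

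Among genes that act in the nucleus, the shares lay between those and the background. For chromatin regulators 14 of 137 genes were hosts (10.2%, 17 peaks at 2.22 per Mb, 1.29 to 3.55), led by the acetyltransferase *Kat2b* (39.44), *Dnmt3a* (38.44) and *Prdm6* (26.97). For homeodomain, SOX, forkhead and nuclear receptor factors 12 of 138 were hosts (8.7%, 15 peaks at 2.43 per Mb, 1.36 to 4.01), led by the forkhead gene *Foxk1* (26.29), the LIM homeodomain gene *Lhx4* (21.91) and *Nr5a1*, an orphan receptor of steroidogenic tissue (21.56). *Rarg*, a retinoic acid receptor gene chosen after its values were seen, had 3 peaks in its intron 3, with scores of 15.55, 14.65 and 7.5.

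The other families had fewer peaks. The median eligible length was 95 kb for axon guidance and synaptic adhesion, 81 kb for cadherins and catenins and 61.8 kb for neurotransmitter receptors. It was 40.7 kb for WNT, TGF-beta, FGF, Notch and insulin signalling and 13.4 kb for cell cycle regulators, against 20.7 kb over all genes. Axon guidance and synaptic adhesion genes had 7 hosts of 111 (6.31%, 1.09 peaks per Mb), with *Nrp1*, a semaphorin receptor (19.12), *Sema3d* (18.61) and *Epha10* (14.88) at the top. WNT, TGF-beta, FGF, Notch and insulin signalling had 5 of 127 (3.94%, 0.578 per Mb), led by *Pik3r5* (21.26), *Bmp5* (11.6) and *Wnt5b* (8.66). Cadherins and catenins had 3 of 63 (4.76%, 0.581 per Mb), namely *Cdh23* (19.2), *Fat1* (19.03) and *Cdh22* (13.43). Neurotransmitter receptors had 2 of 86 (2.33%, 0.361 per Mb), with *Grin3a*, an NMDA receptor subunit gene (8.84), among them. Cell cycle regulators had 1 of 78 (1.28%), *Cdk18* (68.94). These are counts beside the background of all genes, and no family was tested.

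**Figure D4:**
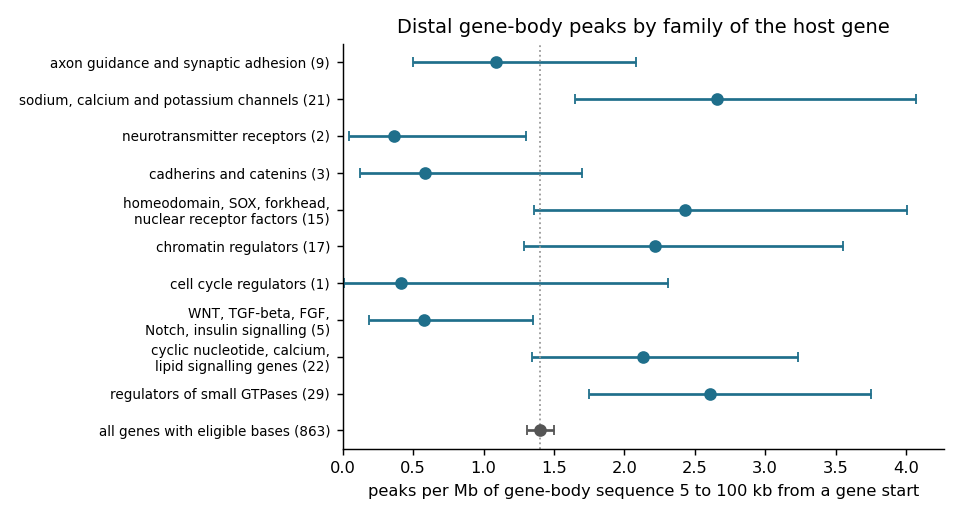
Distal gene-body peaks per Mb of gene-body sequence 5 to 100 kb from a gene start, for 10 families of host genes and for all genes (dotted line), with exact 95% Poisson intervals and the number of peaks in parentheses. The interval lies wholly above 1.4 per Mb for sodium, calcium and potassium channels (1.65 to 4.07) and regulators of small GTPases (1.75 to 3.75), and wholly below it for neurotransmitter receptors (0.0437 to 1.3) and WNT, TGF-beta, FGF, Notch and insulin signalling (0.188 to 1.35). The intervals are not adjusted for the number of families. They count each peak as independent, although some hosts hold several, so they are a description and not a test.

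Host genes were also set against the study's lists of genes whose expression changed on knockdown of *Paupar* or of *Pax6* in the same cell line. Membership alone was used, without the values of those lists. The study made them with different filters, and with a looser significance threshold for *Pax6* than for *Paupar*, so their shares are not strictly comparable. Of 822 genes of the *Paupar* list with eligible bases, 61 were hosts (7.42%), and of 798 genes of the *Pax6* list, 51 (6.39%), against 4.63% of all genes. The median eligible length was 30.2 kb and 25.4 kb in these lists and 20.7 kb over all genes. The lists could hold only genes measured on the arrays that passed the study's filters, whereas the 4.63% covers all genes with eligible bases. The paper reports higher expression in N2A cells for genes associated with *Paupar* binding sites. Shares of hosts were not adjusted for expression or length. There were 15 hosts in both lists (8.47% of 177). The highest scores among the 15 belonged to the peaks of *Unc80*, a subunit of the NALCN channel complex (22.98), *Dgkg*, a diacylglycerol kinase (21.95), and *Ptprr*, a tyrosine phosphatase of MAP kinases (19.23). *Zfpm1*, a cofactor of GATA factors, had 2 peaks (18.74 and 8.26). *4933439F18Rik* (11.88 and 6.83), *Garnl3* (10.88 and 7.36) and *Syt7*, a calcium sensor of vesicle release (8.36 and 6.47), also had 2 each. The others had 1 peak each. They were *Dkk3* (16.51), the kinase gene *Stk24* (15.77), *Scn9a* (13.99), the planar polarity gene *Prickle2* (13.11), and *Ass1*, an enzyme of arginine synthesis (12.88). The lowest of them were *Slit1*, a ligand of Robo receptors in axon guidance (9.06), *Sctr*, the secretin receptor (8.48), and *Fam163a* (6.77). Of these peaks, those of *Dgkg* (unit of 8 bp), *Stk24* (57 bp) and *Scn9a* (5 bp) have a tandem repeat at the centre. No test was run on these counts.

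One peak of the class was covered by a primer pair of the study. The product of 89 bp, on chromosome 3 from 86313659 to 86313747, lies wholly in the peak from 86313588 to 86313887, in intron 42 of *Lrba*. The nearest gene start, 38468 bp away, is that of *Mab21l2*, a developmental gene nested in *Lrba*, after which the pair is named. The peak is 300 bp wide with a score of 10.18, and the product holds 2 copies of a stretch with 4 of the 10 enriched 6-mers on either strand, CACCCC among them, in capitals.
Lrba, chr3:86313659-86313747: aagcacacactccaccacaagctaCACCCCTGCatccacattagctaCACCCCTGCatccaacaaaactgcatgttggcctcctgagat

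The limits of the class cut through a continuous range of distances. The members nearest to the lower limit, 5010 bp from the start of their host gene, included those in *Ralgps2* (score 15.02) and *Rrp7a* (score 9.06). The peak just outside was in *Fkbp10*, at 4983 bp, with a score of 8.71. At the upper limit, the last member was in *Kirrel3*, 99870 bp from the start of *St3gal4* (score 18.12), and the first peak outside was in *Tbc1d1*, at 100053 bp (score 23.29). Within the class, 131, 191, 321 and 220 peaks lay at 5 to 10, 10 to 20, 20 to 50 and 50 to 100 kb, and their median scores were 12.88, 11.88, 12.67 and 12.71. The share with a capture oligonucleotide match was between 22.4% and 25.5% in these 4 ranges.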

How the data were processed

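CHART-Seq was performed with 5 N2A libraries. The authors used bowtie for mapping 50 bp paired-end reads to mm9 and MACS2 for calling peaks, once over the *LacZ* control and once over input, kept those found in both comparisons, and deposited a score with each of 2849 peaks. The list does not say what the score is, and here it served for ranking and filtering. Peaks were placed with the 22380 protein-coding genes of the NCBIM37 annotation, the assembly of mm9, whose genome gave all sequences. Oligonucleotide, primer and gene lists came from the supplementary files. Matches were exact, on either strand. All Fisher's exact tests were two-sided. The steps were tested on simulated data.

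The class of peaks, the gene families and the motifs were chosen with earlier results of these data known. Named genes are the 10 highest and 3 widest peaks, hosts of 4 or more peaks or in both knockdown lists, the top 3 per family, the top 5 near internal starts, the 8 longest matches (ties by score), peaks with a primer product and those at the limits. Of the knockdown lists membership alone was used, not the direction that had been planned. 1 gene that this rule names is not reported here. Others are marked as chosen afterwards. Python 3.11.15, scipy 1.17.1 and pysam 0.24.0 were used.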

Additional observations from a re-analysis of the deposited data

How the results depend on the processing

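No paired analysis was possible because the peaks come as 1 joint list with no value per library, which also means that no replicate could be left out. The class held 855 peaks when the whole interval had to lie in the gene, 859 with the starts of all protein-coding transcripts (769 shared, 94 left and 90 entered), 804 after merging peaks within 10 kb and 606 with a score of at least 10. Of 64 values under alternatives, 54 kept their direction and side of the threshold, stayed within 1.5 times the main value for counts, or stayed within its 95% interval for shares. The share near internal starts was 1.39% within 500 bp in place of 1 kb. The 1.69% of eligible bases given above holds for 1 kb and is no background for it. With a score of at least 10, which left 606 peaks, 21 6-mers were more frequent and 65 less frequent. The cause of these lower counts was not tested. The odds ratio for capture oligonucleotide matches against adjacent regions was between 2.02 (without PauparCHART254) and 3.95 (central 200 bp). With 12 nt it was 3.02 (Fisher's exact p = 0.0496). It was 2.72 without the peaks with a tandem repeat. The odds ratio for tandem repeats was 2.14 at 80%, 2.27 at 90% and 2.54 with a score of at least 10. These values without PauparCHART254 or repeats, and those for repeats, were chosen after seeing the data. Directions turned only for comparisons that were not past the threshold in either form. Against intergenic peaks, the odds ratio was 1.09 for score with a score of at least 10, 1.08 for matches in the central 200 bp, and 0.984 for width and 1.01 for matches without chromosome 8. It was 1.04 for matches against peaks over 100 kb out without chromosome 8, 1 for width against peaks within 5 kb with a score of at least 10, and 1.29 for orientation with matches of at least 11 nt. The cause of these turns was not tested.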
